A study of Danio rerio with 8 samples.

Results

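The change in the transcriptome of zebrafish primordial germ cells (PGCs) between 7 and 24 h post fertilisation (hpf) was measured in 4 of the 8 RNA-sequencing libraries of the series, 2 from PGCs at 7 hpf and 2 from PGCs at 24 hpf. The members were chosen by label alone (cell type and stage), and all genes in the table were considered. The PGCs had been sorted by flow cytometry from embryos of the kop-EGFP-F-nos3’UTR transgenic line, in which a farnesylated green fluorescent protein is made under the germ-line kop promoter and its messenger RNA carries the 3' untranslated region of nanos3. The methods also give the transgene a cry-DsRed cassette. The other 4 libraries came from the soma of the same transgenic line at the same stages, 2 at 7 hpf and 2 at 24 hpf, and were used to share the estimate of spread and to test where the change in PGCs differed from that in soma. All groups carried the transgene and none received a treatment. Each group had 2 replicates that the study describes as biologically independent, although the labels do not say whether they came from separate clutches, so the p-values measure the spread between these libraries. Whether reads of the transgene were counted to nanos3 was not tested.

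PGCs are the founders of sperm and eggs. In zebrafish they are set aside very early, by inheritance of germ plasm, a maternally made assembly of RNA and protein that is organised in the oocyte by Bucky ball (buc) and carries nanos3, dnd1, ddx4 (vasa), tdrd7a and other transcripts. At gastrula stages (7 hpf) the PGCs have begun to migrate through the embryo, guided by the chemokine Cxcl12 and its receptor Cxcr4, and by 24 hpf they have gathered at the site of the future gonad, while the soma around them has formed muscle, notochord, blood and nervous system.

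The total of expected counts per library ranged from 6997535 to 21073232, with the 7 hpf PGC libraries at 10221280 and 6997535 and the 24 hpf PGC libraries at 21073232 and 20702486. The 20 most abundant genes took 8.76% and 8.19% of the counts in the PGC libraries at 7 hpf, against 40.4% and 42.9% at 24 hpf, and between 9.83% and 44.4% in the soma libraries. Levels below are given as counts scaled to library size (CPM, a share of the library total) scaled by TMM, a factor that sets most genes to no change, and 3 counts in a PGC library corresponded to between 0.158 and 0.309 CPM. A gene was said to rise or fall where the edgeR quasi-likelihood test gave a Benjamini-Hochberg adjusted p under 0.05 and the log2 change was at least 1.5 in size.

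Germ-line markers picked for the purpose were far higher in the sorted PGC libraries than in soma. Mean CPM of ddx4, nanos3, dnd1, tdrd7a and ca15b was between 29.1 and 1624 times as high in PGCs as in soma at 7 hpf and between 64.3 and 276 times as high at 24 hpf. Other genes differed less. At 24 hpf rgs14a was at 1.00 and 0.727 CPM in PGCs and at 0.0661 and 0.960 CPM in soma. At 7 hpf the Tudor-domain gene tdrd15 was at 37.3 and 59.7 CPM in PGCs and at 63.9 and 54.4 CPM in soma. The PGC libraries at 24 hpf also held transcripts that mark differentiated somatic cell types. In the muscle marker list 22 of 23 genes rose (95.7%, beside 19.5% of all tested genes). The 23 genes summed to 136 and 183 CPM in the PGC libraries at 7 hpf and to 71592 and 126190 CPM at 24 hpf. The soma libraries at 24 hpf held 19670 and 106690 CPM. None of these muscle genes was at 0 counts in both PGC libraries at 24 hpf, and 7 were at 7 hpf. The fast myosin gene myhz1.3, with 0 counts in both PGC libraries at 7 hpf, reached 12244 and 22432 CPM at 24 hpf.

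Markers of 13 somatic cell types gave the same picture for most types. Of 220 such genes 196 were tested, 129 rose in PGCs between 7 and 24 hpf and 9 fell, beside 19.5% and 6.94% of all tested genes. The 28 notochord and connective tissue markers summed to 704 and 445 CPM in PGCs at 7 hpf and to 13085 and 15549 CPM at 24 hpf, a level within the range of soma at 24 hpf (9536 and 18051 CPM). The 24 neural markers went from 260 and 287 CPM to 1364 and 1376 CPM, again within the range of soma at 24 hpf (1161 and 1532 CPM), and 19 of the 23 tested rose. Blood markers were lower in PGCs than in soma at 24 hpf, at 188 and 160 CPM against 827 and 615 CPM, and the 10 heart markers followed the same order at 30.4 and 29.6 CPM against 162 and 87.8 CPM. The 18 leukocyte markers summed to 586 and 272 CPM in PGCs at 7 hpf, nearly all of it from LCP1. They were at 14.6 and 33.2 CPM in PGCs at 24 hpf, with 4 of them at 0 counts in both libraries, and at 126 and 84.1 CPM in soma. The lower sum came with the fall of LCP1, and most other members did not fall. Of 13 leukocyte markers tested, 2 rose (15.4%), LCP1 fell (7.69%) and 10 did not pass the test, while 10 had a log2 change above 0. In these bulk libraries, fewer cells of a type and less RNA per cell cannot be told apart, and whether these transcripts came from the PGCs or from other cells, and what part they had in each change described here, was not tested.

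**Figure D1:**
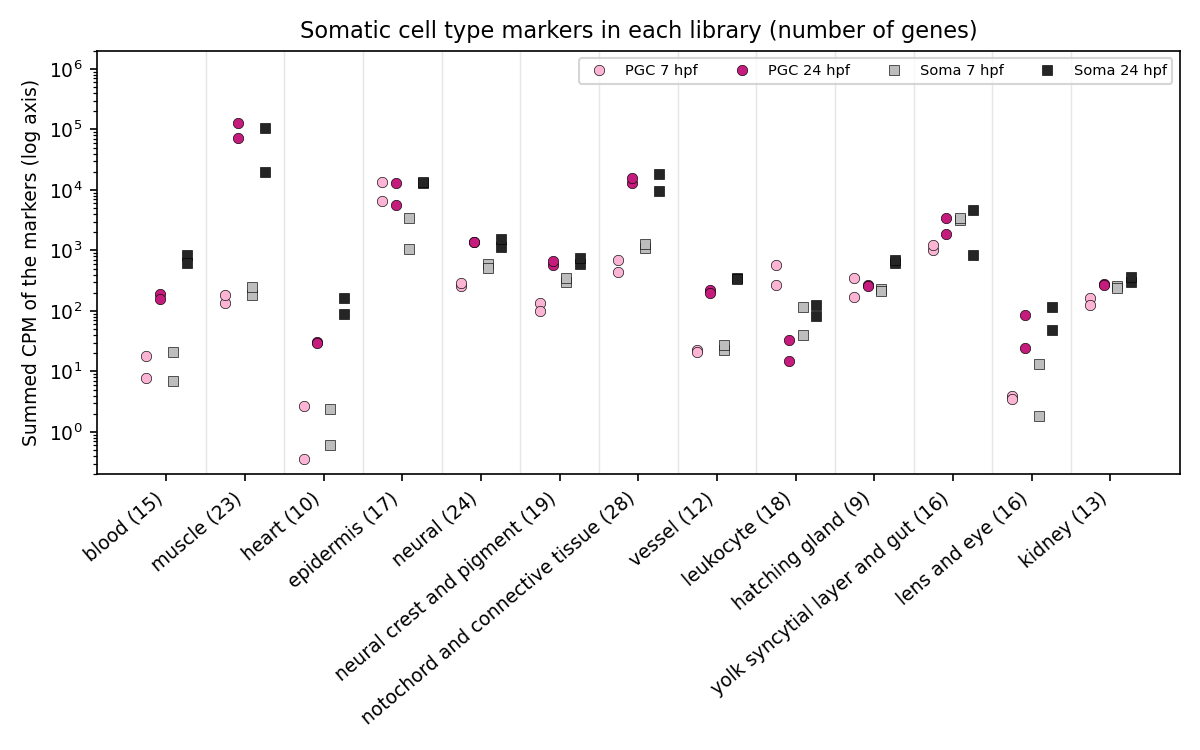
Summed level of each list of somatic markers in every library, in TMM-scaled CPM on a log axis, with PGC and soma libraries at 7 and 24 hpf as separate points. Muscle markers in PGCs moved from 136 and 183 CPM at 7 hpf to 71592 and 126190 CPM at 24 hpf, whereas epidermal markers in PGCs spanned 6466 to 13548 CPM at 7 hpf and 5634 to 13178 CPM at 24 hpf and so overlapped.

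Epidermal markers did not share this course, and were already abundant in PGC libraries at 7 hpf. Of 17 tested 6 rose (35.3%), 4 fell (23.5%) and 7 did not pass the test, beside 19.5% and 6.94% of all tested genes. The 17 genes summed to 13548 and 6466 CPM there, above both soma libraries of that stage (1076 and 3433 CPM), and to 5634 and 13178 CPM at 24 hpf. The keratin krt18a.1 fell from 2001 and 1035 CPM to 287 and 325 CPM (log2 change −2.31 ± 0.51 SE, adjusted p = 0.00894), and the keratin krt92 and the envoplakin gene evpla fell too (log2 changes −2.46 and −2.36). The tight-junction gene cldni rose from 0 counts to 46.8 and 75.0 CPM, and the keratin genes cyt1 and cyt1l rose too (log2 changes 2.12 and 2.78). For krt4 the level was 2818 and 1482 CPM at 7 hpf and 2418 and 6368 CPM at 24 hpf, and its libraries overlapped. LCP1 (plastin-2, an actin-bundling protein of leukocytes and other motile cells) was at 585 and 268 CPM in PGCs at 7 hpf, against 33.6 and 113.7 CPM in soma, and fell to 3.38 and 7.75 CPM (log2 change −6.26 ± 0.76, adjusted p = 0.000623). Single markers were named in this and the following paragraph after their values were seen.

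Myogenic regulators followed the structural muscle genes. MYOD1, which commits cells to the muscle lineage, rose from 0.870 and 0.618 CPM to 51 and 91.7 CPM (log2 change 6.54 ± 0.79, adjusted p = 0.00062). MYOG, a later regulator of muscle differentiation, had 0 counts at 7 hpf and was at 36.2 and 29.0 CPM at 24 hpf, at least 124-fold higher. MYF5 was the muscle marker that did not pass the test, at 5.44 and 2.68 CPM and then 5.75 and 2.91 CPM. Among genes of other tissues, COL2A1 (ENSDARG00000069093), the main collagen of cartilage and notochord, went from 0.145 and 0 CPM to 3727 and 3847 CPM, GFAP, a filament of glia and neural progenitors, from 0 counts to 163 and 203 CPM, and the embryonic globin gene hbae3 from 0 counts to 33.0 and 36.8 CPM. The soma libraries at 24 hpf held 137 and 132 CPM of hbae3, 101 and 187 CPM of GFAP and 1932 and 3849 CPM of that COL2A1 gene.

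Across all genes, 19885 passed the filter on low counts and 5266 of them (26.5%) differed between PGCs at 7 and 24 hpf. At 24 hpf 3886 (19.5%) were higher and 1380 (6.94%) were lower. The median log2 change over all tested genes was 0.36, and it was 5.30 among the rises and −2.26 among the falls. Of the rises, 1243 had 0 counts in both libraries at 7 hpf, and 48 of the falls had 0 counts in both libraries at 24 hpf. Soma shared 77.1% of all PGC rises and 58.1% of all PGC falls. The PGC libraries of the stages did not overlap for any gene that rose or fell, but they also did not overlap for 14680 of the 19885 genes tested. On TPM, which is scaled by length and was used without a TMM factor, the balance turned. There limma on log2(TPM + 1) called 1610 genes higher and 2422 lower, and the median of the genes it tested was −0.53. The unit and the scaling between libraries both differ from the main fit, and their parts were not tested. Leaving out replicate 2 of PGCs at 24 hpf reduced the calls to 3027, and leaving out replicate 1 to 3445.

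**Figure D2:**
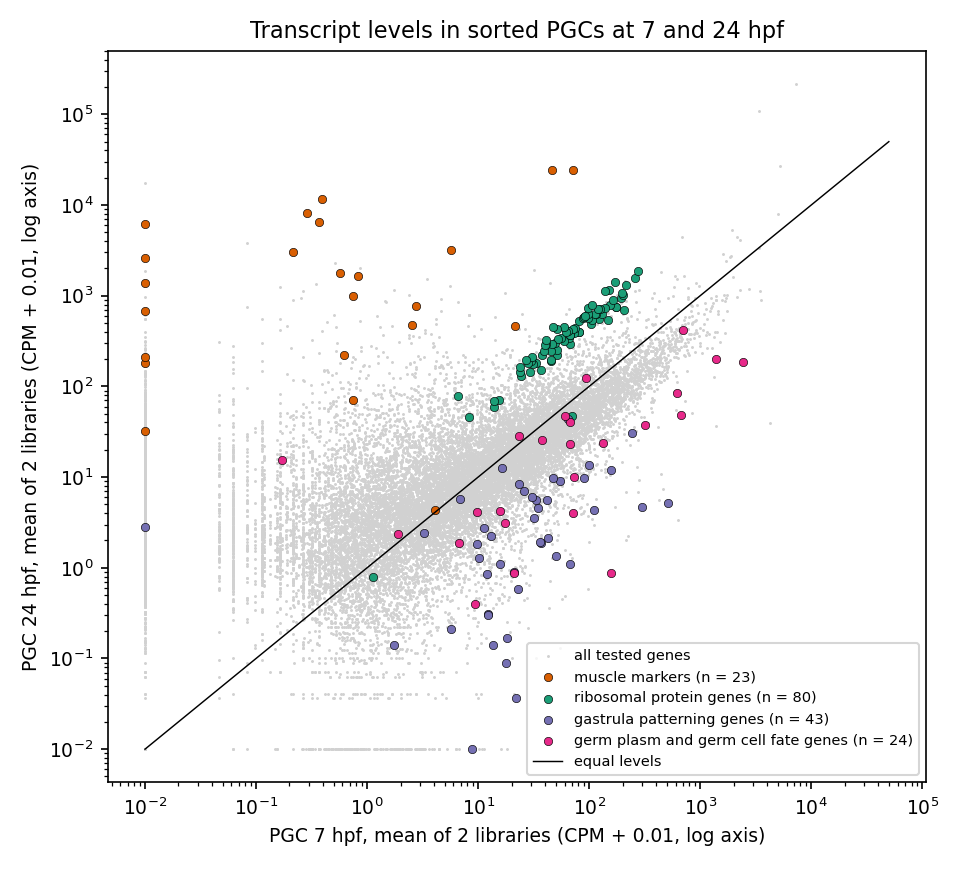
Mean level of each tested gene in PGCs at 24 hpf against its level at 7 hpf, in TMM-scaled CPM on log axes, with 0.01 added, with muscle markers (23), ribosomal protein genes (80), gastrula patterning genes (43) and germ plasm and germ cell fate genes (24) coloured and a line at equal levels. Genes with 0 counts in both libraries at 7 hpf stand at the left edge, 7 muscle markers among them, and the 78 ribosomal protein genes that rose lie above the line.

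Many transcripts that define germ plasm and germ-cell fate declined. Of 24 such genes, all tested, 12 fell (50%), 1 rose (4.17%) and 11 did not pass the test, beside 6.94% and 19.5% of all tested genes. The median log2 change was −2.19 against 0.36 over all genes. The RNA helicase gene ddx4 (vasa) was at 1254 and 1507 CPM in the libraries at 7 hpf and at 212 and 187 CPM at 24 hpf (log2 change −2.79 ± 0.45, adjusted p = 0.0022). The translational regulator nanos3 went from 596 and 639 CPM to 108 and 61.2 CPM (−2.86 ± 0.38, adjusted p = 0.000944). For dnd1, whose RNA-binding product shields germ-line transcripts from microRNAs, the values were 594 and 742 CPM and then 53.7 and 43.1 CPM (−3.79 ± 0.59, adjusted p = 0.00189). All of these genes remained well above soma at 24 hpf, where ddx4 was at 1.72 and 2.47 CPM and nanos3 at 0.265 and 0.686 CPM. CPM is a share of the library, and muscle markers summed to 71592 and 126190 CPM in the same 24 hpf PGC libraries. What part this had in the falls of germ plasm, piRNA and maternal transcripts was not tested.

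**Figure D3:**
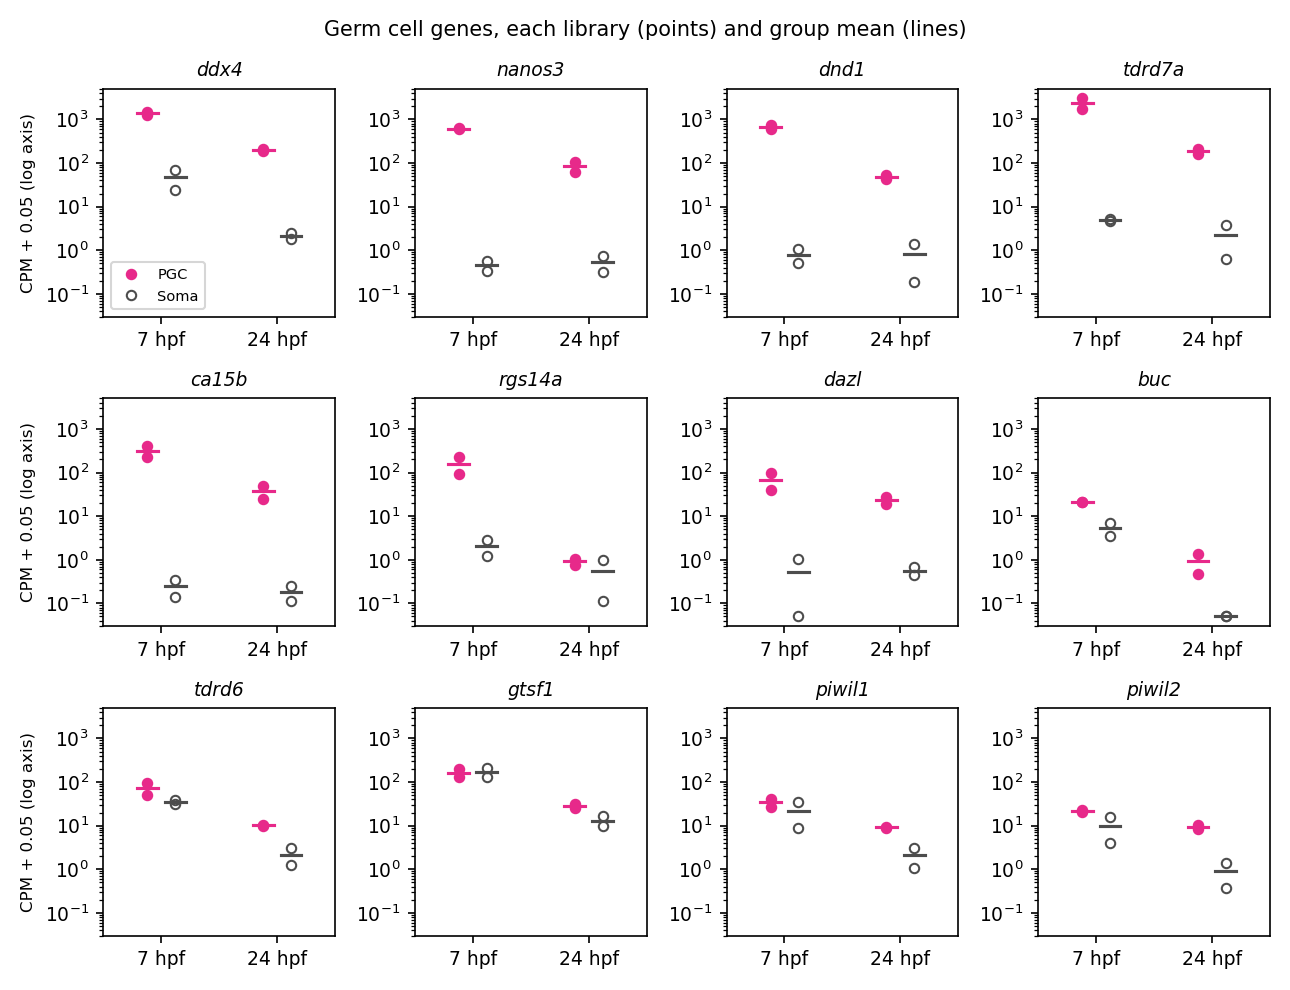
Level of 12 germ-line genes in each library, in TMM-scaled CPM plus 0.05 on a log axis, for PGCs and soma at 7 and 24 hpf. The 12 genes were picked for display, and all have a log2 change below 0. Not shown are the 4 of 24 germ plasm genes and 4 of 16 piRNA pathway genes tested that lay above 0. PGC points at 24 hpf lie below those at 7 hpf in each panel shown, by most in rgs14a (224 and 91.8 CPM to 1.00 and 0.727 CPM) and by least in piwil2 (20.7 and 22.3 CPM to 8.39 and 10.2 CPM).

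The size of the decline differed widely among these transcripts. At the steep end stood rgs14a, a regulator of G-protein signalling, which went from 224 and 91.8 CPM to 1.00 and 0.727 CPM (log2 change −7.49 ± 0.89, adjusted p = 0.000561), close to its level in soma at 24 hpf (0.0661 and 0.960 CPM). The germ plasm organiser buc went from 21.5 and 20.9 CPM to 0.422 and 1.33 CPM (−4.59 ± 0.78, adjusted p = 0.00367). Tudor-domain genes of the germ granule fell as well: tdrd7a from 1761 and 3125 CPM to 208 and 162 CPM, and tdrd6 from 49.9 and 96.5 CPM to 10.2 and 9.87 CPM (log2 changes −3.72 and −2.86). The carbonic anhydrase gene ca15b went from 414 and 223 CPM to 50.3 and 24.7 CPM (−3.09 ± 0.47). The log2 changes of tdrd7a and dnd1 were larger in size than those of ddx4 and nanos3. The ranges of 1 SE on either side of each value overlapped, and differences between genes were not tested.

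Germ-cell genes at the other end did not pass the test. The germ-line RNA-binding gene dazl was at 95.8 and 39.5 CPM at 7 hpf and 27.9 and 19.0 CPM at 24 hpf (log2 change −1.53 ± 0.72, adjusted p = 0.131), so its libraries did not overlap but the replicates at 7 hpf lay far apart. The LIN28A gene ENSDARG00000016999, which blocks maturation of let-7 microRNAs, went from 63.0 and 71.1 CPM to 37.5 and 42.9 CPM (−0.74 ± 0.24). CELF1, RBPMS2 ENSDARG00000045930 and PRDM1 lay above 0 without passing the test (log2 changes 0.38, 0.32 and 0.28), and TFAP2C was at −0.35. KIT (ENSDARG00000043317), the receptor for stem cell factor and well known in pigment cells, was the gene of the list that rose, from 0.217 and 0.103 CPM to 13.2 and 17.4 CPM (log2 change 6.44 ± 0.89, adjusted p = 0.00112), and it rose in soma too. Of the 12 that fell, 5 also fell in soma (58.1% of all PGC falls did). Those calls held without any single library for rgs14a, buc, dnd1, tdrd7a, ca15b, nanos3, tdrd6 and ddx4, whereas ZAR1 lost its call without any PGC library and elavl2 without either 24 hpf PGC library or replicate 1 at 7 hpf.

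The piRNA pathway, in which Piwi proteins loaded with small RNAs silence transposons in the germ line, declined in part. Of 16 genes tested 6 fell (37.5%, beside 6.94% of all tested genes) and 10 did not pass the test. The median log2 change was −1.75. No gene rose by edgeR, by DESeq2 or at an unadjusted p under 0.05. Above 0 but not called were henmt1, tdrd12, pld6 and tdrkh (log2 changes 1.58, 0.64, 0.33 and 0.30). The Tudor-domain scaffold tdrd1 went from 29.2 and 39.4 CPM to 2.06 and 5.63 CPM (log2 change −3.16 ± 0.60, adjusted p = 0.0046), and gtsf1, a zinc-finger cofactor of Piwi proteins, from 196 and 131 CPM to 24.7 and 31.9 CPM (−2.53 ± 0.39, adjusted p = 0.00178). The mitochondrial-surface scaffold asz1, stk31, gpat2 and the helicase gene ddx43 fell by 3.08, 2.30, 2.12 and 2.02 on the log2 scale.

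The Piwi genes themselves did not pass the test. The values for piwil1 were 41.7 and 26.9 CPM at 7 hpf and 9.02 and 9.26 CPM at 24 hpf (log2 change −1.91 ± 0.68, adjusted p = 0.0561). That gene was called in 13 of 22 alternatives, among them a fit with the replicate number as a block, so its status depended on the setting. For piwil2 the values were 20.7 and 22.3 CPM and then 8.39 and 10.2 CPM (−1.21 ± 0.72, adjusted p = 0.22), and no alternative called it. In soma at 24 hpf piwil1 was at 3.04 and 1.03 CPM and piwil2 at 0.331 and 1.37 CPM, and 10 members of the list fell there. The helicase gene tdrd9 was at 42.9 and 32.4 CPM and then 16.6 and 11 CPM in PGCs (−1.45 ± 0.46, adjusted p = 0.0401), just short of the minimum change, but went from 62.0 and 35.8 CPM to 0.728 and 1.78 CPM in soma (interaction adjusted p = 0.123). The calls of tdrd1 and gtsf1 held without each library in turn, but the count of 6 was 3 without either library at 7 hpf or without replicate 2 at 24 hpf and 2 without replicate 1 at 24 hpf.

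Of 20 genes of meiosis, 12 had enough counts to be tested. Of these 2 fell (16.7%, beside 6.94% of all tested genes) and 10 did not pass the test. The median log2 change was −0.19, with 6 members above 0 and 6 below. The synaptonemal complex gene sycp1 went from 5.87 and 24.7 CPM to 2.06 and 0.363 CPM (log2 change −3.64 ± 1.22, adjusted p = 0.0467), and topaz1, a germ-line gene known from mammalian male meiosis, from 26.1 and 41.8 CPM to 12.7 and 8.42 CPM (−1.68 ± 0.56, adjusted p = 0.0468). Neither call survived the loss of replicate 2 at 7 hpf or of either library at 24 hpf, and on log2(TPM + 1) neither was called. For sycp1 RLE scaling and the replicate block ended the call as well. The histone methyltransferase gene prdm9, which places recombination sites in mammals, was at 29.7 and 32.1 CPM and then 13.9 and 12 CPM (−1.25 ± 0.37). None rose by edgeR, while DESeq2 gave 1 rise and an unadjusted p under 0.05 gave 1.

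Receptors, ligands and cytoskeletal genes of germ-cell migration were called at shares near those of all genes. Of 34 genes tested 9 rose, 2 fell and 23 did not pass the test, shares of 26.5% and 5.88% beside 19.5% and 6.94% of all tested genes, and the median log2 change was 0.44, which turned to −0.41 on log2(TPM + 0.1). Both genes that fell encode the chemokine receptor CXCR4. ENSDARG00000041959 went from 40.7 and 60.5 CPM to 8.02 and 7.51 CPM (log2 change −2.70 ± 0.50, adjusted p = 0.00417), and ENSDARG00000057633 from 22.5 and 13.8 CPM to 5.22 and 1.51 CPM (−2.42 ± 0.61, adjusted p = 0.016). Both fell in soma by a similar amount (−2.67 and −2.22), and the second lost its call in PGCs without replicate 1 at 7 hpf or replicate 2 at 24 hpf. The files do not say which of the paralogous CXCR4 genes is the receptor used by PGCs.

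Adhesion and cytoskeletal genes and a water channel gene in the same list rose or were not called. The integrin gene ITGB1 ENSDARG00000053232 rose by 3.50 on the log2 scale, a call lost in 2 of 22 alternatives. The vinculin gene VCL ENSDARG00000044968, which ties integrins and cadherins to actin, rose from 4.78 and 5.76 CPM to 133 and 224 CPM (log2 change 5.08 ± 1.1, adjusted p = 0.00824), though not without replicate 1 at 7 hpf. The ezrin-family gene EZR ENSDARG00000020944 had 0 counts at 7 hpf and was at 48.6 and 77.7 CPM at 24 hpf, at least 240-fold higher, and the water channel gene AQP1 ENSDARG00000023713 was at least 62.4-fold higher. N-cadherin (CDH2) was at 375 and 308 CPM and then 647 and 465 CPM, and β-catenin (CTNNB1) at 718 and 566 CPM and then 486 and 403 CPM, neither past the test. Of the 9 that rose, 6 also rose in soma (77.1% of all PGC rises did). Muscle markers rose in the same 24 hpf PGC libraries (71592 and 126190 CPM summed).

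Transcripts that the oocyte loads into the egg fell in large part. Of 32 maternal oocyte products, all tested, 16 fell (50%, beside 6.94% of all tested genes) and 16 did not pass the test. The median log2 change was −3.30. No member rose by edgeR or DESeq2, and 1 was higher at an unadjusted p under 0.05. WEE2, an oocyte kinase that restrains Cdk1, went from 53.6 and 86.8 CPM to 0.475 and 2.06 CPM (log2 change −5.80 ± 1.01, adjusted p = 0.00319). The early-embryo cyclin CCNA1 went from 12.5 and 24.0 CPM to 0 and 0.484 CPM (−6.23 ± 1.49, adjusted p = 0.0125), a call lost without replicate 1 at 24 hpf. Among the 16 that fell the mean level was between 1.90 and 259 CPM at 7 hpf, with a median of 21.5 CPM, and the median at 24 hpf was 1.12 CPM.

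Several abundant maternal transcripts were not called. The cold-shock RNA-binding gene YBX1 was at 1188 and 749 CPM and then 1254 and 1282 CPM, IGF2BP3, which stabilises maternal RNA in zebrafish, at 146 and 135 CPM and then 232 and 210 CPM, and khdrbs1a at 1888 and 1509 CPM and then 1052 and 852 CPM. The last was past the p threshold but not the minimum change (log2 change −0.84 ± 0.24, adjusted p = 0.026). Of the 16 that fell, 13 also fell in soma (58.1% of all PGC falls did). Leaving out replicate 2 at 24 hpf brought the count of falls to 8, and leaving out replicate 1 at 24 hpf brought it to 9.

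Factors of zygotic genome activation and pluripotency fell together. Of 23 genes tested 15 fell (65.2%), 3 rose (13%) and 5 did not pass the test, beside 6.94% and 19.5% of all tested genes. The median log2 change was −3.32. The POU-domain factor pou5f3, which opens chromatin at genome activation together with nanog and sox19b, went from 856 and 416 CPM to 5.01 and 1.63 CPM (log2 change −7.57 ± 0.82, adjusted p = 0.000374). The homeobox gene nanog went from 133 and 64.5 CPM to 0.950 and 2.91 CPM (−5.69 ± 1.15, adjusted p = 0.00608), and foxh1, a transducer of Nodal signals, from 91.8 and 101.7 CPM to 0.844 and 0.303 CPM (−7.35 ± 0.50, adjusted p = 8.46e-05). The fall in soma was of similar size for pou5f3 (−8.43) and nanog (−5.79). For foxh1 the fitted fall was larger in soma (−9.57), though the interaction was not called (2.22 ± 0.72, adjusted p = 0.212).

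The members that rose were SOX2 and a pair of MYC genes. SOX2, a factor of pluripotent and neural progenitor cells, went from 6.23 and 6.48 CPM to 42.7 and 17.4 CPM (log2 change 2.24 ± 0.53, adjusted p = 0.0123), while soma went from 97.7 and 42.0 CPM to 50.7 and 37.0 CPM (interaction adjusted p = 0.155). That call was lost without either library at 7 hpf or without replicate 1 at 24 hpf, and neural markers rose in the same libraries. The related genes SOX3 and sox19a were at 48.2 and 28.8 CPM then 103 and 76.8 CPM, and at 61.5 and 64.1 CPM then 93.6 and 66.1 CPM. MYC ENSDARG00000045695 went from 0 and 1.13 CPM to 47.3 and 37.8 CPM (6.36 ± 1.03, adjusted p = 0.00226), and MYC ENSDARG00000007241 from 13.5 and 10.6 CPM to 72.4 and 89.4 CPM (2.74 ± 0.54, adjusted p = 0.00526).

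Genes that pattern the gastrula fell together in PGCs and soma. Of 43 tested, 34 fell (79.1%), 1 rose (2.33%) and 8 did not pass the test, beside 6.94% and 19.5% of all tested genes. The median log2 change was −3.60, and all 34 that fell in PGCs also fell in soma (58.1% of all PGC falls did). The endoderm determinant sox32 went from 35.4 and 8.75 CPM to 0.0528 and 0 CPM (log2 change −9.23 ± 1.14, adjusted p = 0.000665). Nodal signalling lost both ligand and inhibitor transcripts, with ndr2 from 26.9 and 8.44 CPM to 0.158 and 0 CPM (−7.59 ± 1.05) and lft2 from 10.7 and 6.79 CPM to 0 counts in both libraries, at least 51.5-fold lower. The T-box gene tbx16, which drives mesoderm to leave the margin, went from 528 and 497 CPM to 7.86 and 2.54 CPM (−6.62 ± 0.69, adjusted p = 0.000335).

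The level of these somatic patterning genes in PGC libraries at 7 hpf was not small. The 34 that fell had mean levels between 5.63 and 513 CPM there, with a median of 32.8 CPM, and a median of 2.17 CPM at 24 hpf. For tbx16 the PGC libraries (528 and 497 CPM) lay between the soma libraries of the same stage (531 and 288 CPM), whereas for admp, a BMP-family ligand of the organiser, they were lower (22.3 and 14.3 CPM against 67.2 and 46.7 CPM). ALDH1A2, which makes retinoic acid, and tbx6 did not pass the test and had overlapping libraries (106 and 24.0 CPM then 40.1 and 47.5 CPM, and 25.5 and 7.10 CPM then 20.4 and 4.54 CPM).

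Hox genes, which set position along the body axis, were the reverse. Of 47 tested 41 rose (87.2%, beside 19.5% of all tested genes) and 6 did not pass the test. The median log2 change was 7.21, or 5.28 with genes at 0 counts set at their lower bound. No Hox gene fell by edgeR, by DESeq2 or at an unadjusted p under 0.05. HOXD3 had 0 counts in both libraries at 7 hpf and was at 34.0 and 33.1 CPM at 24 hpf, at least 128-fold higher, and HOXA3 reached 45.4 and 67.6 CPM, at least 215-fold higher. Mean levels of the 41 genes at 24 hpf were between 1.02 and 82.6 CPM with a median of 13.4 CPM, and 20 of them had 0 counts in both libraries at 7 hpf. The early-expressed gene hoxb1b was at 8.70 and 8.44 CPM and then 15.4 and 21.7 CPM and did not pass the test.

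These Hox levels in PGCs at 24 hpf were close to those in soma. HOXD3 was at 34.1 and 28.7 CPM in soma and HOXA3 at 41.9 and 44.8 CPM. HOXB4 was somewhat higher in PGCs than in soma at 24 hpf (19.4 and 20.6 CPM against 11.2 and 9.46 CPM), a difference for which no test is reported here. In total, 40 Hox genes rose in soma, 36 of them among the 41 in PGCs (77.1% of all PGC rises also rose in soma). Neural and muscle markers rose in the same PGC libraries.

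**Figure D4:**
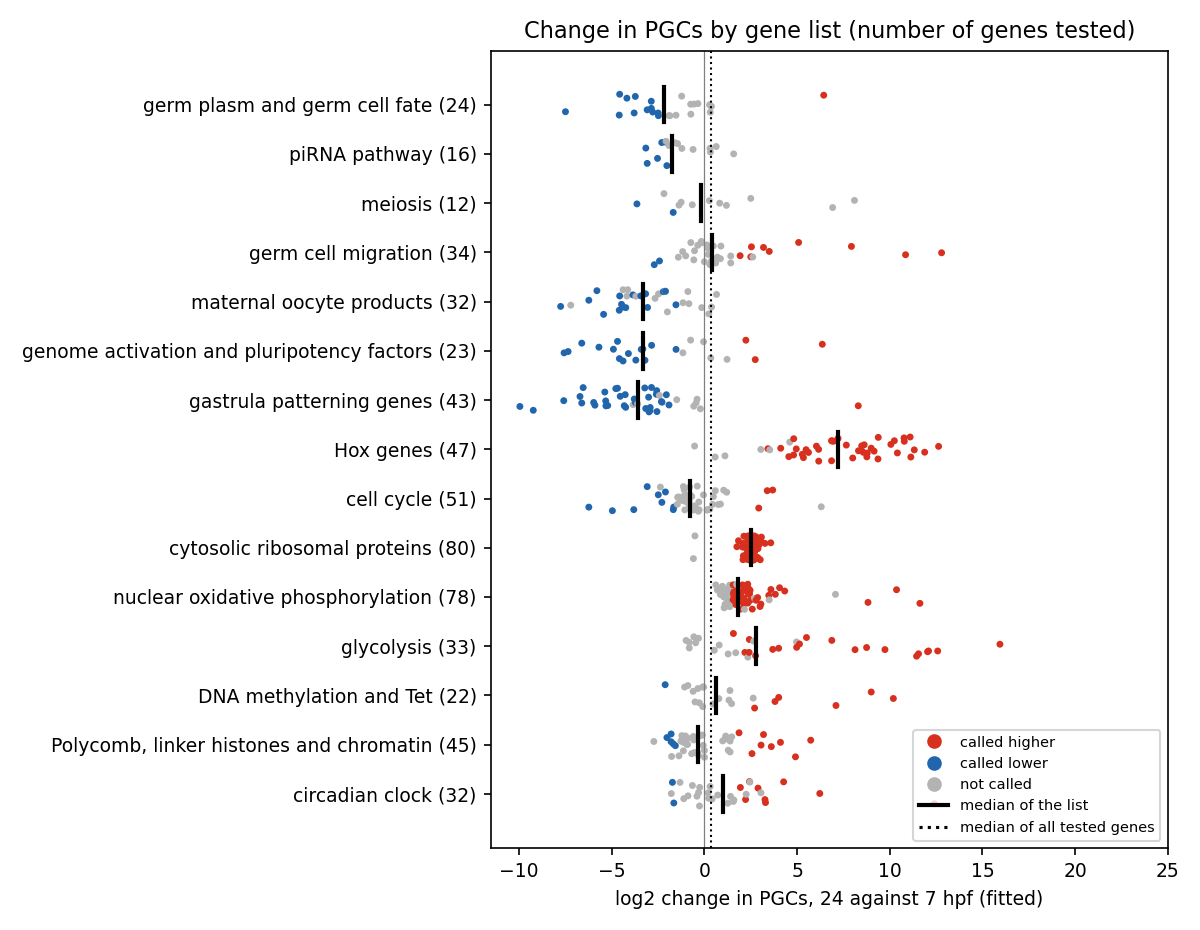
Log2 change in PGCs from 7 to 24 hpf for every tested member of each gene list, with the median of each list and the median of all tested genes (0.36) marked. The germ plasm, maternal, genome activation and gastrula lists lie mostly below 0, the ribosomal protein genes that rose sit between 1.75 and 3.58, and 46 of the 47 Hox genes lie above 0.

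The cell cycle list lay below all tested genes in the median, and a few members moved far. Of 51 genes tested 9 fell (17.6%), 3 rose (5.88%) and 39 did not pass the test, beside 6.94% and 19.5% of all tested genes. The median log2 change was −0.80 against 0.36 over all tested genes, and 37 members were below 0. The replication gene mcm6l, related to a subunit of the MCM helicase, went from 105 and 109 CPM to 4.17 and 2.66 CPM (log2 change −4.96 ± 0.53, adjusted p = 0.000353), whereas PCNA was at 457 and 402 CPM and then 332 and 289 CPM and TOP2A at 306 and 430 CPM and then 303 and 294 CPM. Cyclins CCNB2 and CCNE1 fell from 68.5 and 61.6 CPM to 5.38 and 3.88 CPM and from 145 and 86.9 CPM to 15.7 and 11.6 CPM (−3.81 and −3.08). The proliferation marker mki67 was at 1480 and 1392 CPM and then 747 and 513 CPM (−1.19 ± 0.24, adjusted p = 0.00617), past the p threshold but not past the minimum change. The rises were the G1 cyclin gene CCND2 in both copies (log2 changes 3.69 and 3.39) and the stress gene GADD45G ENSDARG00000016725 (2.93), of which GADD45G and CCND2 ENSDARG00000070408 lost their calls without replicate 2 at 24 hpf (CCND2 ENSDARG00000070408 also without either replicate 1). On log2(TPM + 1) 21 genes of the list fell.

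Genes of the cytosolic ribosome rose almost without exception. Of 80 tested 78 rose (97.5%, beside 19.5% of all tested genes) and 2 did not pass the test. The median log2 change was 2.5. No member fell by edgeR, by DESeq2 or at an unadjusted p under 0.05. Summed over the 80 genes, the level was 7318 and 6259 CPM at 7 hpf and 34743 and 43016 CPM at 24 hpf. RPL26 went from 326 and 224 CPM to 1810 and 1983 CPM (log2 change 2.79 ± 0.28, adjusted p = 0.000302), and RPS2 from 194 and 147 CPM to 1219 and 1587 CPM (3.04 ± 0.28, adjusted p = 0.00023). The 78 changes lay between 1.75 and 3.58, and the count was 78 without each library in turn.

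In soma the same genes summed to a higher level at 7 hpf, and fewer of them were called as rising. The sum was 15420 and 15718 CPM in soma at 7 hpf and 34996 and 40429 CPM at 24 hpf, so soma was above PGCs at 7 hpf and the ranges of the cell types met at 24 hpf. In soma 14 of the 80 rose, beside 23.2% of all tested genes, with a median log2 change of 1.27. The interaction was positive in 79 of the 80, with a median of 1.27. It had an unadjusted p under 0.05 in 72, beside 1415 genes above 0 and 1579 below 0 among all 19885 tested. The lowest adjusted p was 0.133, so whether the change differed between cell types was not settled for any of these genes. RPL7L1, which has a role in ribosome assembly, was 1 of the 2 without a rise (67.3 and 73.2 CPM then 50.6 and 42.6 CPM).

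Nuclear genes of oxidative phosphorylation rose in part. Of 78 tested 45 rose (57.7%, beside 19.5% of all tested genes) and 33 did not pass the test. The median log2 change was 1.83, and all 78 changes were above 0. No gene fell by edgeR, by DESeq2 or at an unadjusted p under 0.05. The rises included atp5if1b, an inhibitor of the ATP synthase (1.38 and 1.65 CPM to 23.5 and 26.9 CPM, log2 change 4.06 ± 0.60, adjusted p = 0.00144), and cox6b1 (0 counts to 16.3 and 39.8 CPM, at least 107-fold higher). The ATP synthase subunit ATP5F1A was at 270 and 272 CPM and then 530 and 591 CPM (1.05 ± 0.30). The count of 45 fell to 18 without replicate 2 at 24 hpf and to 27 without replicate 2 at 7 hpf, was 22 on log2(TPM + 1), and 15 members rose in soma.

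Glycolysis showed a similar share of rises. Of 33 genes tested 20 rose (60.6%, beside 19.5% of all tested genes) and 13 did not pass the test. The median log2 change was 2.76, and none fell by edgeR, by DESeq2 or at an unadjusted p under 0.05. Rises were largest in ALDOA ENSDARG00000034470, PGAM2, SLC2A1 ENSDARG00000001437 and PFKP ENSDARG00000028000 (log2 changes 15.95, 12.59, 12.09 and 12.04). These fitted sizes depended on the setting. Over 22 alternatives they ranged from 7.18 to 16.4, from 4.69 to 13.0, from 3.37 to 12.4 and from 2.57 to 12.5 in that order. That ranking took called members with a mean of at least 5 CPM at either stage. The aldolase gene ALDOA ENSDARG00000034470 had 0 counts at 7 hpf and was at 313 and 807 CPM at 24 hpf, at least 2127-fold higher, and the phosphoglycerate mutase gene PGAM2 reached 33.3 and 75.8 CPM, at least 207-fold higher. The second aldolase A gene, ENSDARG00000011665, was at 153 and 135 CPM and then 316 and 382 CPM (log2 change 1.28 ± 0.25). Summed muscle markers rose from 136 and 183 CPM to 71592 and 126190 CPM in the same libraries. In soma 17 of the 20 genes also rose (77.1% of all PGC rises did). The count in PGCs was 12 without replicate 2 at 24 hpf and 13 without replicate 2 at 7 hpf.

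Of 22 genes of DNA methylation and its removal, all tested, 6 rose (27.3%), 1 fell (4.55%) and 15 did not pass the test, beside 19.5% and 6.94% of all tested genes, with a median log2 change of 0.62 that turned to −0.65 on log2(TPM + 0.1). The Tet dioxygenases, which oxidise 5-methylcytosine, all rose. TET2 went from 0 and 0.515 CPM to 126 and 110 CPM (log2 change 9.0 ± 0.78, adjusted p = 0.000267), tet3 from 0.942 and 0.618 CPM to 124 and 96.9 CPM (7.10 ± 0.55, adjusted p = 0.000127), and TET1 from 6.45 and 7.51 CPM to 46.0 and 45.5 CPM (2.71 ± 0.37, adjusted p = 0.00103), of which TET1 was not called on log2(TPM + 1). Soma at 24 hpf held 115 and 138 CPM of TET2 and 129 and 118 CPM of tet3, so the level in PGCs was at or just below that of soma.

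Among de novo methyltransferases both DNMT3A genes rose and 1 of 4 Dnmt3b-type genes fell. The DNMT3A genes went from 5.94 and 4.43 CPM to 81.6 and 86.5 CPM (ENSDARG00000005394, log2 change 4.01 ± 0.35) and from 3.19 and 3.71 CPM to 42.1 and 54.7 CPM (ENSDARG00000015566, 3.81 ± 0.40). The Dnmt3b-type gene dnmt3bb.2 fell from 394 and 371 CPM to 95.3 and 81.1 CPM (−2.12 ± 0.24, adjusted p = 0.000432), although its counts are fractional and may be shared with near copies. The other Dnmt3b-type genes were not called: dnmt3ba was at 134 and 155 CPM and then 148 and 123 CPM, DNMT3B at 31.8 and 24.9 CPM and then 31.5 and 21.9 CPM, and dnmt3bb.3 at 53.7 and 47.8 CPM and then 29.1 and 25.7 CPM (log2 changes −0.09, −0.09 and −0.89). The maintenance methyltransferase DNMT1 was at 131 and 211 CPM and then 187 and 146 CPM, with overlapping libraries (−0.04 ± 0.28), and its partner UHRF1 at 374 and 222 CPM and then 287 and 206 CPM (−0.28 ± 0.30). In soma UHRF1 went from 1009 and 832 CPM to 354 and 352 CPM (log2 change −1.38, interaction adjusted p = 0.273). The methyl-CpG reader zbtb4, with 0 counts at 7 hpf, was at 10.6 and 10.2 CPM at 24 hpf, at least 39.5-fold higher.

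Among Polycomb genes, linker histones and other chromatin genes, 8 of 45 tested rose, 5 fell and 32 did not pass the test, with a median log2 change of −0.37. The shares of 17.8% and 11.1% stood beside 19.5% and 6.94% of all tested genes. Subunits of the Polycomb complexes moved in both directions. Among the falls, the H3K27 methyltransferase EZH2 went from 254 and 212 CPM to 85.4 and 60.7 CPM (log2 change −1.67 ± 0.25, adjusted p = 0.00168), its partner SUZ12 ENSDARG00000070256 from 139 and 165 CPM to 45.5 and 42.1 CPM (−1.79 ± 0.26), and the chromobox gene cbx2 from 172 in both libraries to 41.8 and 43.1 CPM (−2.02 ± 0.27). Among the rises, phc2b went from 0.435 and 3.09 CPM to 22.4 and 19.6 CPM (log2 change 3.61 ± 0.77, adjusted p = 0.0077), and the chromobox genes cbx7a and CBX8 ENSDARG00000087327 also rose (3.06 and 3.19, named after their values were seen). HMGA2 rose from 3.26 and 1.75 CPM to 132 and 140 CPM (5.74 ± 0.58), and the H3K27 demethylase kdm6bb from 5.22 and 8.65 CPM to 127 and 111 CPM (4.11 ± 0.43). All 5 falls and 7 of the 8 rises were also called in soma (58.1% of all PGC falls and 77.1% of all PGC rises were). Without replicate 2 at 24 hpf the falls numbered 3, EZH2 being among those lost, and without replicate 1 at 24 hpf the rises numbered 5, while on log2(TPM + 1) there were 3 rises and 11 falls.

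Of 32 clock genes tested 9 rose (28.1%), 2 fell (6.25%) and 21 did not pass the test, beside 19.5% and 6.94% of all tested genes, and the median log2 change of 0.99 turned to −0.41 on log2(TPM + 0.1). The period gene PER1 ENSDARG00000012499 rose from 9.79 and 4.22 CPM to 64.2 and 72.1 CPM (log2 change 3.27 ± 0.46, adjusted p = 0.00113), and the repressor gene BHLHE40 had 0 counts at 7 hpf and was at 39.6 and 56.6 CPM at 24 hpf, at least 183-fold higher. The cryptochrome CRY2 fell from 59.1 and 81.6 CPM to 21.3 and 23.6 CPM (−1.65 ± 0.36, adjusted p = 0.00916), and nfil3-5 from 84.1 and 51 CPM to 25 and 15.9 CPM (−1.72 ± 0.36). The same PER1 gene rose from 0.897 and 0.373 CPM to 91.1 and 88.2 CPM in soma (interaction adjusted p = 0.119), starting from a lower level than in PGCs. The 9 rises became 3 without replicate 2 at 24 hpf, 4 without replicate 1 at 24 hpf and 5 without replicate 2 at 7 hpf, and were 2 on log2(TPM + 1), and the 2 falls became 0 without replicate 2 at 24 hpf and 1 without any other PGC library.

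Genes whose promoters gained DNA methylation in the study were also followed. The list was chosen by the study from its methylation data on these cell types and is not independent of them. Of its 68 names, 45 matched a gene in the tables and 27 of these were tested. Of the 27, 9 fell (33.3%, beside 6.94% of all tested genes) and 18 did not pass the test. The median log2 change was −1.53. By edgeR none rose, while DESeq2 gave 1 rise and an unadjusted p under 0.05 gave 2. The falls included ddx4, ddx43, elavl2, sycp1 and admp, already described, and tatdn2, which went from 52.1 and 93.7 CPM to 3.22 and 4.97 CPM (log2 change −4.15 ± 0.58, adjusted p = 0.00113). In soma 13 fell, among them 8 of the 9 (58.1% of all PGC falls also fell there). The count in PGCs was 4 without replicate 1 and 5 without replicate 2 at 24 hpf.

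By size the largest rises and falls were taken among genes with a mean of at least 20 CPM at either stage and a symbol that is not a clone name. The 12 largest rises all had 0 counts in both PGC libraries at 7 hpf. The ranking used the fitted log2 change, which has no stable size for a group at 0 counts, so such genes tended to come first. Genes with a few reads at 7 hpf ranked lower. An example, named after its values were seen, is myhz1.1, from 0.145 and 0.618 CPM to 8602 and 14762 CPM. Its log2 change was 14.99, below the 15.93 of TXLNB. They were led by myhz1.3 (at least 65893-fold higher at 24 hpf), the calcium pump gene atp2a1 (4415 and 7996 CPM, at least 23583-fold) and the tropomyosin gene tpma (1730 and 3469 CPM, at least 9878-fold), and went on through myhz1.2, TNNC2, tnnt2c, TNNI2, DES, ACTA1, MYL1 and ALDOA to TXLNB (at least 2102-fold). Each rose in soma too. The myosin heavy chain genes are near-identical copies between which reads can be split, so their single values are uncertain.

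The 12 largest falls by the same limits mixed early-embryo regulators with genes of other kinds. Steep falls left out by these limits included lft2, ndr2 and admp for their level and si:ch211-241j12.3 (−6.75) for its clone name. The steepest was alox5b.3, a lipoxygenase gene, from 378 and 160 CPM to 0.158 and 0.0605 CPM (log2 change −11.12 ± 0.73, adjusted p = 7.41e-05), with soma going from 76.0 and 85.6 CPM to 0.595 and 0.206 CPM. After sox32 came the hyaluronan receptor gene cd44a (51.5 and 14.4 CPM to 0 and 0.182 CPM), the importin gene kpna7 (12.8 and 27.5 CPM to 0 and 0.182 CPM), pou5f3, rgs14a, foxh1, ACER1, VRTN, tbx16, S100A1 and LCP1. The calls of kpna7 and S100A1 each rested on single libraries, as both were lost without replicate 1 at 24 hpf. Of these 12, rgs14a, kpna7, ACER1 and LCP1 were not called in soma, and the interaction was not called for any of them (adjusted p of 0.113 for LCP1 and 0.136 for rgs14a).

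Compared per length as transcript abundance (TPM), and among genes with an effective length of at least 300 bases, the same pair of transcripts led at both stages. The gene zgc:158463 was at 4308 and 4709 TPM at 7 hpf and 95232 and 77120 TPM at 24 hpf, and si:dkey-153m14.1 at 2915 and 3423 TPM and then 70272 and 58593 TPM. Next at 7 hpf were the elongation factor eef1a1l1, the chaperone HSP90AB1, krt8, marcksl1b, si:ch211-113a14.24 and the histone gene h2ax. At 24 hpf the muscle actin actc1b (0.0600 and 0.180 TPM to 1783 and 2501 TPM), RPL26, tpma and atp2a1 had joined eef1a1l1 and HSP90AB1. The length minimum was set after the values were seen, because without it the ranking was led by short RNAs such as a 5.8S rRNA gene with an effective length of 2.8 to 3.4 bases, at which TPM is not a usable level.

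The change in PGCs was then set against that in soma, where 4621 genes rose (23.2%) and 1967 fell (9.89%). There were 2998 genes that rose in both cell types, which is 77.1% of the PGC rises and 64.9% of the soma rises, and 802 that fell in both (58.1% and 40.8% of the falls). The interaction, which tests whether the change itself differed, was called for 1 gene of 19885 (0.00503%), although at an unadjusted p under 0.05 it was above 0 in 1415 genes and below 0 in 1579, and DESeq2 called 785. So the edgeR fit with 2 libraries a group singled out a single gene.

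**Figure D5:**
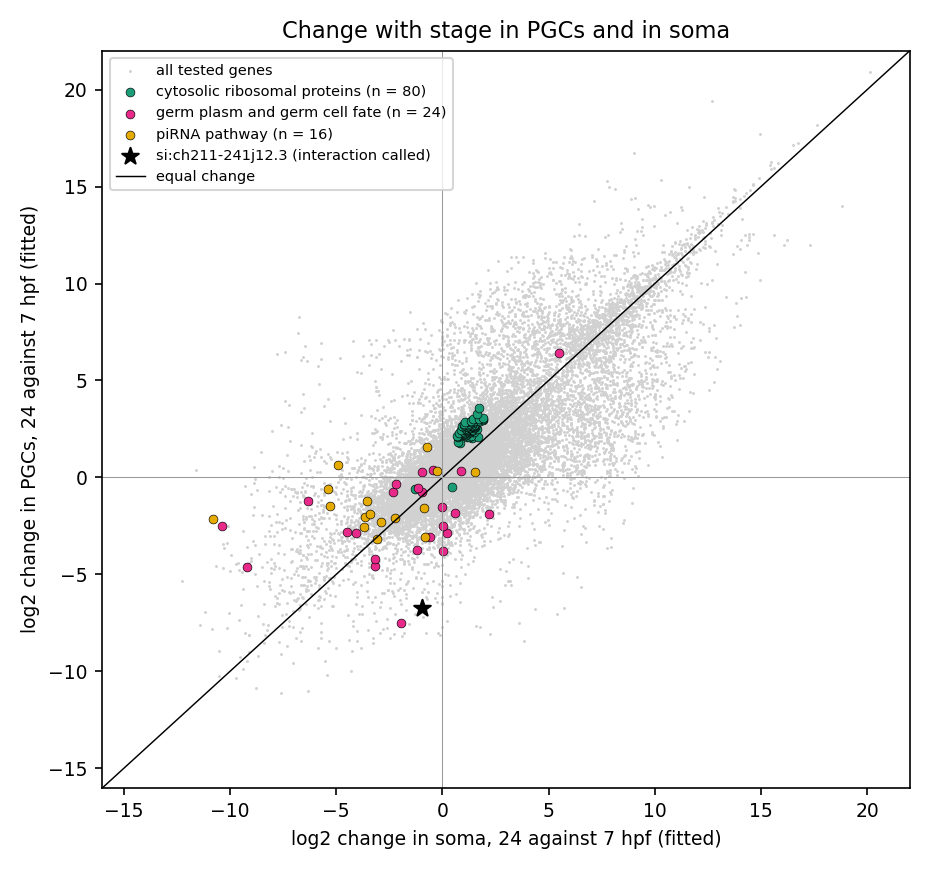
Log2 change from 7 to 24 hpf in PGCs against that in soma for each tested gene. Ribosomal protein (80), germ plasm (24) and piRNA pathway (16) genes are coloured beside a line of equal change. The gene called by the interaction, si:ch211-241j12.3, lies at −6.75 in PGCs and −0.95 in soma.

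That gene was si:ch211-241j12.3 (ENSDARG00000043963). Its level was 4491 and 3969 CPM in PGCs at 7 hpf, 42.0 and 36.6 CPM in PGCs at 24 hpf, 51.7 and 46.5 CPM in soma at 7 hpf and 24.9 and 26 CPM in soma at 24 hpf. The PGC libraries at 7 hpf stood alone at a high level, and those at 24 hpf lay between the soma libraries of the stages. The log2 change was −6.75 ± 0.27 in PGCs (adjusted p = 2.52e-05) and −0.95 ± 0.22 in soma, with an interaction of −5.80 ± 0.32 (adjusted p = 0.000441).

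The genes next in order of the interaction did not pass adjustment. The 7 that followed had adjusted p between 0.0845 and 0.0859, and the interaction was negative in 6. Among them tdrd15, a Tudor-domain gene, went from 37.3 and 59.7 CPM to 16.4 and 14.2 CPM in PGCs and from 63.9 and 54.4 CPM to 1.12 and 1.3 CPM in soma, and vat1 was at 91.4 and 72.5 CPM and then 103 and 113 CPM in PGCs while soma went from 10.1 and 9.87 CPM to 94.9 and 127 CPM. A further 8 genes fell in PGCs and rose in soma, namely sh3gl1a (also among the 7), adipor1b, cldn8.2, adcy5, ABCB10, zgc:100868, zgc:101663 and ENSDARG00000010940, named after their values were seen. For sh3gl1a the values were 56.8 and 42.0 CPM then 11.9 and 16.3 CPM in PGCs, and 2.77 and 3.07 CPM then 19.2 and 18.2 CPM in soma. The interaction was not called for any of the 8 (adjusted p between 0.0845 and 0.143), and no gene rose in PGCs and fell in soma.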

How the data were processed

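RNA was measured by RNA-seq (SMARTer pico mammalian kit, version 2) in sorted PGCs and in soma at 7 and 24 hpf, 2 libraries each. According to the methods, the authors trimmed reads with Trim Galore, aligned them with STAR to danRer10 and quantified genes with RSEM. The kit marks strand, but whether counting used it is not given in the sources used here, so overlapping and antisense genes are uncertain. The deposited tables hold RSEM expected counts, TPM and effective length in bases per gene and library, as made by the authors. The 92 spike-in rows were all 0, and 0 columns were left without a sample.

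Expected counts were rounded to whole numbers, filtered with filterByExpr by group, scaled by TMM and fitted with edgeR 4.0.16 (R 4.3.3) by the quasi-likelihood test (two-sided) over all 8 libraries with 4 group means. Contrasts were PGC 24 against 7 hpf, the same in soma, and their difference (the interaction). SE is the log2 change divided by the square root of F. Lower bounds on folds set a group at 0 counts to 3 counts per library and allow for counting error alone, as reads copied by PCR do not count separate molecules. Replicates differed beyond sampling noise (chi-square per degree of freedom 43.0 at 7 hpf and 53.8 at 24 hpf).

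Of 34381 IDs 26791 were named, 26686 from a reference table of gene names and 105 from the study's supplement. Capital names are family names shared with mammals, and the Ensembl ID is added to those of the 4506 IDs that share a name. The mitochondrial genome list matched no name and was not analysed here, and some list members are not reported here by name. Named genes were, from each list, up to 4 called members of largest change in each direction with a mean of at least 5 CPM at either stage and up to 3 uncalled members of highest CPM (any member of the germ plasm, piRNA and DNA methylation lists), plus the 12 largest rises and 12 largest falls with at least 20 CPM, non-overlapping libraries and a symbol that is not a clone name, the 8 genes of highest TPM at each stage and the 8 with the smallest interaction p. Members and lists were chosen with earlier results of these data known. Alternatives were RLE scaling, scaling without the 20 most abundant genes, other filters (none, or a mean of 50 counts), DESeq2 1.42.0, no minimum change, glmTreat, the replicate block, the PGC libraries alone, limma 3.58.1 on log2(TPM + 1) or log2(TPM + 0.1), and leaving out each library. No TMM factor was applied to TPM, so the limma fits also differ from the edgeR fit in scaling between libraries. The fit without both 24 hpf soma libraries and the TPM ranking with a length minimum were added after the data were seen.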

Additional observations from a re-analysis of the deposited data

Results flagged for a closer look

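The change from 7 to 24 hpf differed between PGCs and soma for si:ch211-241j12.3, by the test of the difference itself. The interaction was −5.80 on the log2 scale (SE 0.32, edgeR quasi-likelihood test, adjusted p = 0.000441), and the level went from 4491 and 3969 CPM to 42.0 and 36.6 CPM in PGCs and from 51.7 and 46.5 CPM to 24.9 and 26 CPM in soma. What the gene encodes is not annotated in the files or names used here.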

How the results depend on the processing

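The count of 5266 calls in PGCs was 2687 by glmTreat, with 2289 higher and 398 lower, which tests against the minimum change itself. Without a minimum change 2552 genes were lower. By limma on TPM, used without a TMM factor, the split turned. It was 1610 higher and 2422 lower on log2(TPM + 1) and 1987 and 3016 on log2(TPM + 0.1), with 1516 higher without a filter. The cause was not tested. Leaving out each library gave between 3027 and 5765 calls, between 2300 and 4315 higher and between 727 and 1450 lower, the fewest without replicate 2 of PGCs at 24 hpf and next without replicate 1 (3445 calls, 2556 higher and 889 lower). The interaction, with 1 call, gave 986 without a count filter, 785 by DESeq2, 45 on log2(TPM + 1), 21 on log2(TPM + 0.1), 6 on log2(TPM + 1) without a filter, and between 1 and 27 without each library (27 without replicate 1 of soma at 7 hpf). Without both soma libraries at 24 hpf, a setting chosen after seeing the data, 5211 genes were called, 3322 higher and 1889 lower. Of 204 named genes, 117 were called, and in none of these did the direction reverse in an alternative that could be fitted, whereas 25 of those not called had values on either side of 0; 26 lost the call by glmTreat. Replicate differences of the PGC libraries were nearly uncorrelated between stages (correlation 0.0429), which cannot show whether libraries were paired. Pairing of PGC and soma libraries within a stage was not tested, and the interaction treats them as independent. With the replicate block 4886 genes were called, 3575 higher and 1311 lower. The block within the PGC libraries alone gave 5031 calls against 5959 without it. Among the named genes the block added piwil1 and hoxc3a and removed sycp1, cldng and PER1 ENSDARG00000056885. At a floor of 3 counts, genes below 0.158 to 0.309 CPM in PGC libraries were not detectable at this depth.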

Other observations

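Markers of the remaining somatic cell types moved in PGC libraries as follows, where 19.5% of all tested genes rose and 6.94% fell. Of vessel markers 9 of 12 tested rose, with a sum of 22.6 and 20.9 CPM at 7 hpf and 222 and 196 CPM at 24 hpf. Of neural crest and pigment markers 14 of 19 rose, from 137 and 98.0 CPM to 578 and 663 CPM. The hatching gland list had 4 rises and 2 falls among 8 tested, and its sums overlapped between stages (357 and 169 CPM, then 273 and 258 CPM). The hatching enzyme gene he1.1, which that gland secretes, had 0 counts in PGCs at 7 hpf and was at 65.8 and 36.2 CPM at 24 hpf, against 200 and 224 CPM in soma (named after its value was seen, with counts that are not whole and may be shared with related genes). Yolk syncytial layer and gut markers went from 1009 and 1251 CPM to 1896 and 3405 CPM, kidney markers from 162 and 123 CPM to 274 and 272 CPM, and lens and eye markers from 3.91 and 3.50 CPM to 85.8 and 24.0 CPM, with 8 of 14, 6 of 12 and 3 of 6 tested genes rising and 1 of the yolk syncytial layer and gut genes falling.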
